A study of Mus musculus with 9 samples.

Results

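The Dlk1-Meg3 domain is an imprinted stretch of mouse chromosome 12, and its part in these data was 22 of the 225769 CTCF peaks of the deposited table. The peaks were chosen by position only, as those on chromosome 12 that overlap the span from the first base of Dlk1 to the last base of Mirg, with 20 kb added on each side (chr12:109432823-109769460 in GRCm38, 336.6 kb, with genes from GENCODE M21). CTCF binding was measured by ChIP-seq in primary neural stem cells (NSCs) grown from E14.5 cortices of female C57Bl/6 embryos. Of the 3 genotypes, Smchd1 MommeD43-GFP/MommeD43-GFP carries a point mutation that was brought by CRISPR into an Smchd1 allele fused to GFP, and was measured in 3 libraries. Smchd1 del/del cells, in 2 libraries, were made from flox-flox NSCs with a Cre retrovirus and drug selection, and carry no GFP tag. The control, Smchd1 GFP/GFP, in 3 libraries, carries the tagged allele without the point mutation. The deletion, the virus, the selection and the missing tag go together in the del/del cells, so they cannot be told apart. A CTCF table holds no RNA levels, so the labelled cell type was not checked against marker genes.

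The values are log2 reads per M, with 1 pooled value per genotype, so no difference below has a replicate check or a p-value. Each standard error (SE) given below is a counting error computed from the reads behind a value and leaves out the spread between cultures. The reads came to a geometric mean of 49.18 M per library in MommeD43-GFP, 49.98 M in Smchd1 del/del and 41.66 M in the control. The median peak of the table held 34.87, 34.5 and 29.98 reads per library in the same order of genotypes, and its counting SE was 0.141, 0.174 and 0.152 on the log2 scale. The values of all peaks, taken back to the linear scale and summed, came to 34.58%, 34.84% and 34.5% of reads. Each value is a mean of log2 values, so this sum only approximates the share of reads inside peaks.

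In the mouse, genes of this domain are expressed from one parental copy. Dlk1, a transmembrane ligand related to the Notch ligands, and Rtl1, derived from a retrotransposon, are expressed from the paternal copy, while the noncoding RNAs Meg3, Rian and Mirg are expressed from the maternal copy. Rian hosts small nucleolar RNAs, and the region of Mirg holds a large cluster of microRNAs. CTCF is a zinc finger protein that binds a known core motif, acts at insulators and anchors chromatin loops together with cohesin. SMCHD1 is a noncanonical SMC protein with roles in X inactivation and in silencing at some imprinted clusters. The values do not separate the parental copies.

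The 22 peaks lay between chr12:109694851 and 109758150, a stretch of 63.3 kb around the end of B830012L14Rik, the microRNA cluster and Mirg. The stretch chr12:109374001-109694850 (320.9 kb), with Dlk1 (chr12:109452823-109463336), Meg3 (chr12:109541001-109571726), Rtl1 (chr12:109589193-109600330) and Rian (chr12:109603940-109661716), was not analysed here, and nothing is said of CTCF at those genes. Of the 4 genes that name the domain, Mirg (chr12:109729764-109749460, plus strand) was therefore the one with values, and 9 peaks overlapped it. The first and the last of these, peaks 11 and 19, did so only at its edges, with 37 of 600 bp and 10 of 1950 bp inside the gene. The next peak began 12.6 kb beyond the last of the 22. Peaks are numbered 1 to 22 along the chromosome.

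The core CTCF motif was searched on both strands with at most 1 mismatch. Of the 22 peaks, 5 held such a match (22.7%), against 22.6% of all peaks, and 1 held an exact match (4.55%), against 3.79% of all peaks. The 5 matches were on the minus strand. They are shown because they include the tallest peak and the peak with the largest difference. Each is printed 5′ to 3′ on its own strand from the GRCm38 sequence, with the matched stretch in capitals.
site in peak 7: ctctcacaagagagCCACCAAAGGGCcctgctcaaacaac
site in peak 8: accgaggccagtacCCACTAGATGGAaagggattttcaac
site in peak 11: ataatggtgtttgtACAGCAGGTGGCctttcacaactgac
site in peak 15: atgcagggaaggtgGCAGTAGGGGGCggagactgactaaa
site in peak 19: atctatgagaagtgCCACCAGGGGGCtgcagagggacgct
Counting from 1 at the 5′ end of the motif, with the motif's base first, the mismatch was G7A in peak 7 (site at chr12:109719535-109719546), C12A in peak 8 (chr12:109719998-109720009), C1A in peak 11 (chr12:109729579-109729590) and C1G in peak 15 (chr12:109737570-109737581). The exact match in peak 19 was at chr12:109750174-109750185. A match is a description of the letters and not a measured binding site.

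Peak 11 (chr12:109729201-109729800) covers the GENCODE start of Mirg, and its sequence from upstream of the motif match to the end of the peak is shown because the peak carries the largest difference of the domain. The first capitals are the motif match on the opposite strand, and the last 37 bases, also in capitals, belong to Mirg (chr12:109729514-109729800, plus strand). RefSeq places the start of Mirg at 109734981, inside peak 12.
start of Mirg: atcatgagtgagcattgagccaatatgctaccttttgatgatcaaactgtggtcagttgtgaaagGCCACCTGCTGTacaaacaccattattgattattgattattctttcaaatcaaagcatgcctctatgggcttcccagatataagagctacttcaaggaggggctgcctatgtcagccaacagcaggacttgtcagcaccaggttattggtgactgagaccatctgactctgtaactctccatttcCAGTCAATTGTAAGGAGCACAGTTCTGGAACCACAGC

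A total of 12 of the 22 peaks overlapped microRNA hairpins. Together they covered 23 of the 39 hairpins annotated from the first of the 22 peaks to the end of the span. The mature sequences below come from RefSeq for GRCm38, with the seed (bases 2 to 8) in capitals. They are shown because peaks 10 and 11 carry the largest differences and because 3 seeds were shared between microRNAs under the peaks. Expression of the microRNAs was not measured by this assay.
miR-544-5p: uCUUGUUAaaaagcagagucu
miR-544-3p: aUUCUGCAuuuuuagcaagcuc
miR-539-5p: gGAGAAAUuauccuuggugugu
miR-379-3p: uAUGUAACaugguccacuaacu
miR-411-3p: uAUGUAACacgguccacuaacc
miR-1197-5p: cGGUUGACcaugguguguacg
miR-758-5p: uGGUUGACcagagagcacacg
miR-299a-3p: uAUGUGGGacgguaaaccgcuu
miR-299b-3p: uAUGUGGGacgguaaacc
The seed AUGUAAC was common to miR-379-3p (peak 4) and miR-411-3p (peak 5), GGUUGAC to miR-1197-5p and miR-758-5p (both in peak 6), and AUGUGGG to miR-299a-3p and miR-299b-3p, which are encoded on opposite strands of the same place in peak 5.

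Among the 22 peaks, the highest CTCF signal was at the end of Mirg, mostly past the gene. Peak 19 (chr12:109749451-109751400, 1950 bp), which overlaps the last 10 bp of Mirg and holds the exact motif beyond the gene, had 2.11 log2 reads per M in MommeD43-GFP, 2.05 in Smchd1 del/del and 1.79 in the control. It was the highest of the 22 in all 3 genotypes on this scale, which is not divided by length. Per kb of peak it stood at the 95.5th percentile of all peaks, followed by the short peaks 21 (91.7th) and 14 (86.3rd). In the control, peak 21 with 2.028 reads per M and kb was above peak 19 with 1.768. The 22 peaks had a median level of -0.64 (mean of the 3 log2 values), against -0.53 over all peaks, and 9 of them were at or above that median. Per kb of peak the median was 0.918 reads per M, against 0.995 over all peaks. Peaks with a hairpin had a median of 0.88 reads per M and kb, and peaks without one 1.165. These sets were not matched for length. Peaks 14 and 21, the shortest of the domain at 300 bp, had no hairpin and were high per kb. Whether length accounts for the contrast was not tested. The GC content had a median of 50.1%, against 47.8% over all peaks, and 20 of the 22 reached or passed the value for all peaks.

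**Figure D1:**
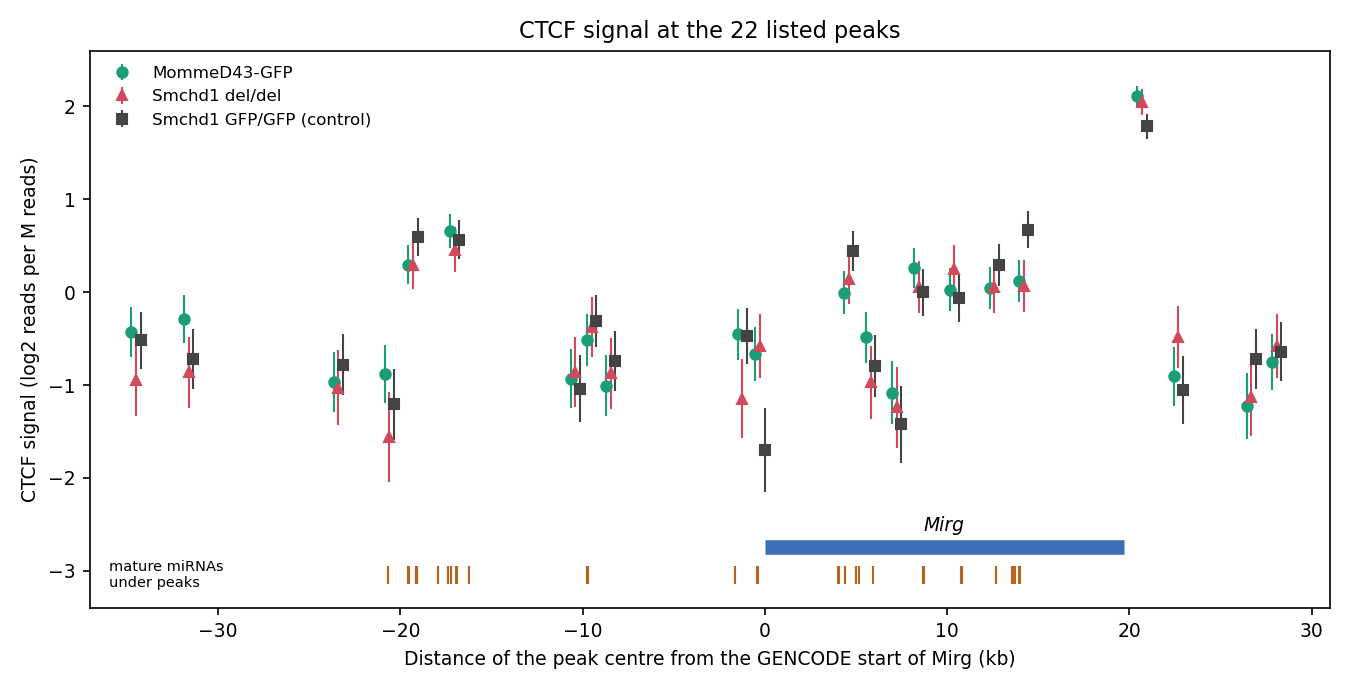
CTCF signal in log2 reads per M at the 22 peaks, by distance of the peak's centre from the GENCODE start of Mirg in kb, for MommeD43-GFP, Smchd1 del/del and the control. Points are pooled values, shifted sideways by genotype, bars are 95% counting intervals, the blue bar is Mirg and ticks are mature microRNAs under peaks. Peak 19 stands above the rest at 2.11, 2.05 and 1.79, and the control lies below both mutants at peak 11.

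Peak 11, at the GENCODE start of Mirg and over Mir544, was the 1 peak of the domain with a difference of 2-fold or more. Its level was -0.67 log2 reads per M in MommeD43-GFP, -0.58 in Smchd1 del/del and -1.70 in the control. Both mutants lay close to each other and the control lay below them. The difference from control was 1.03 on the log2 scale for MommeD43-GFP (2.046-fold, SE 0.277) and 1.12 for Smchd1 del/del (2.178-fold, SE 0.292), and MommeD43-GFP minus Smchd1 del/del was -0.09 (SE 0.231). The reads behind these values were few, at 30.97 per library in MommeD43-GFP, 33.5 in Smchd1 del/del and 12.82 in the control. Both differences use the same control value, so they are not separate evidence. Among the 51221 peaks of the table within 0.25 of its mean level, 1.54% were at least 2-fold above control in MommeD43-GFP, 2.66% in Smchd1 del/del and 0.838% in both. The call did not hold under every setting. With 1 added to the linear values, the difference was 0.32 for MommeD43-GFP and 0.35 for Smchd1 del/del. With 0.1 added it was 0.84 and 0.92, and in MommeD43-GFP it was 0.97 after quantile normalization and 0.99 after centring on GC content.

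Across the domain, MommeD43-GFP had 1 of 22 peaks at least 2-fold above control, where 2.08% of all peaks passed, and 0 at least 2-fold below, where 0.718% did. The count above control at any size was 13 of 22, against 50.8% of all peaks. Its median difference was 0.09, against 0.01 over all peaks, with a range of -0.55 to 1.03. Over the 9 peaks no lower than the table's median level, this median was -0.20, so its direction depended on the weak peaks. Smchd1 del/del likewise had 1 of 22 at least 2-fold above control (3.31% of all peaks) and 0 at least 2-fold below (1.85%). Of its differences 8 were above 0, against 46.6% of all peaks, and the median was -0.14, against -0.04. Between the mutants, MommeD43-GFP minus Smchd1 del/del was at least 2-fold higher at 0 peaks (1.26% of all) and at least 2-fold lower at 0 (1.08%). It was above 0 at 11 of 22, against 53.9%, with a median of 0.03, against 0.04. With 22 peaks, these counts are too small to set the domain apart from the table. The differences had an SD over the 22 peaks of 0.369 for MommeD43-GFP minus control, 0.403 for Smchd1 del/del minus control and 0.31 between the mutants, against 0.428, 0.51 and 0.421 over all peaks.

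**Figure D2:**
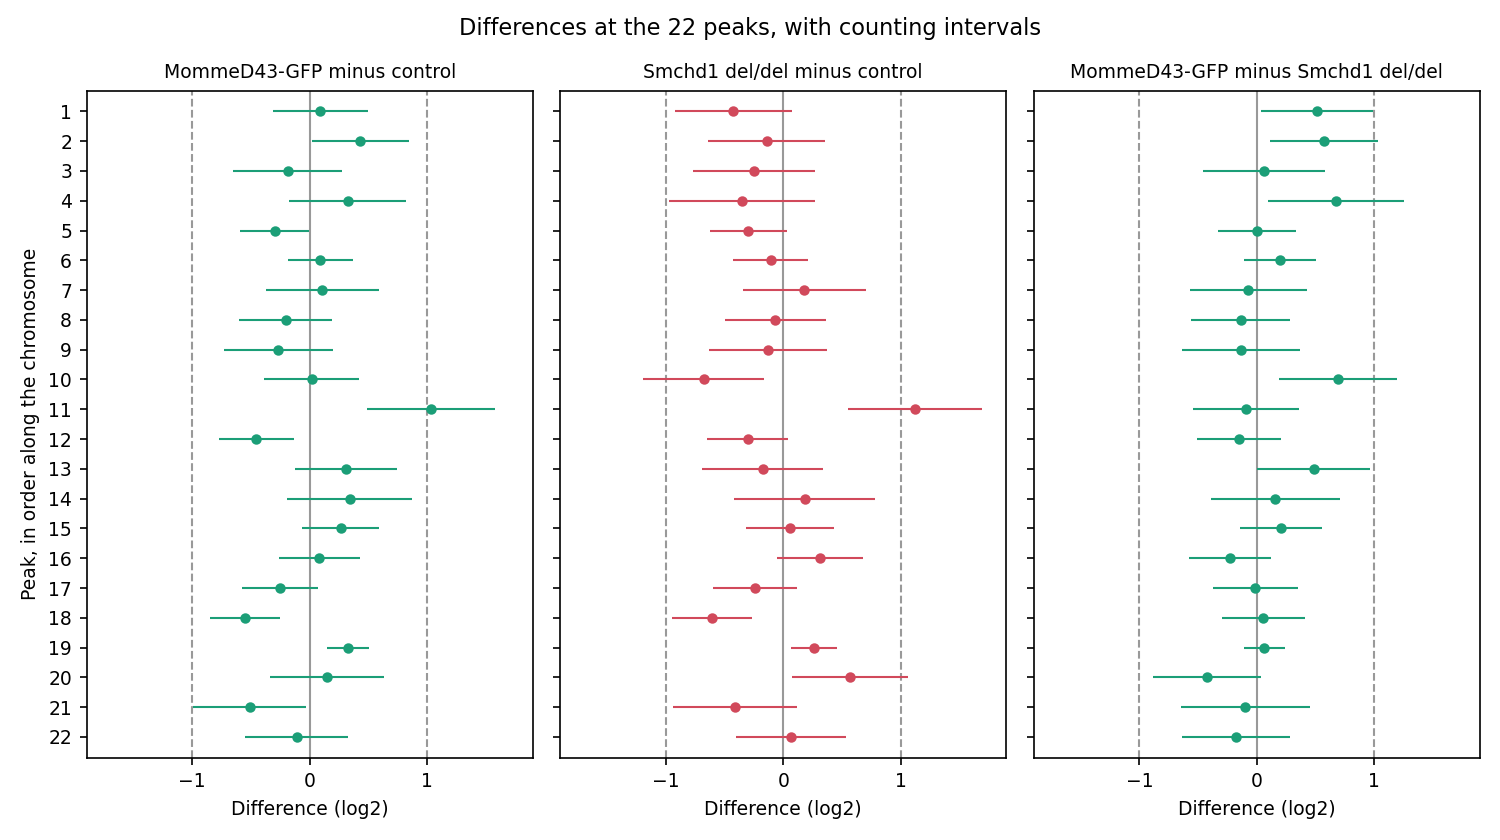
Difference on the log2 scale at peaks 1 to 22 for MommeD43-GFP minus control, Smchd1 del/del minus control and MommeD43-GFP minus Smchd1 del/del. Points are differences of pooled values, bars are 95% counting intervals and dashed lines mark 2-fold. Peak 11 is past the 2-fold line in both comparisons with the control, and no peak is past it between the mutants.

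Both mutants were above control at 7 peaks and below it at 8. At 6 peaks MommeD43-GFP was above control and Smchd1 del/del below it, and at 1 peak the reverse held. Both differences subtract the same control value, so a shared direction is not separate evidence. The share of all peaks with each pattern was not computed, so these counts do not set the domain apart. Peak 19, the tallest, was above control by 0.33 in MommeD43-GFP (SE 0.09) and by 0.26 in Smchd1 del/del (SE 0.099), with 0.07 between the mutants (SE 0.091). Peak 18 (chr12:109743301-109744650), over Mir412, Mir369 and Mir410 within Mirg, had 0.12 log2 reads per M in MommeD43-GFP, 0.07 in Smchd1 del/del and 0.67 in the control. Its differences from control were -0.55 in MommeD43-GFP (SE 0.153), the lowest of the domain in that comparison, and -0.61 in Smchd1 del/del (SE 0.174). Peak 12 (chr12:109733701-109735050), over Mir382, Mir134, Mir668 and Mir485, was likewise below control, by a difference of -0.45 (SE 0.162) for MommeD43-GFP and -0.30 (SE 0.176) for Smchd1 del/del. None of these reached 2-fold. By the GENCODE annotation, peaks 12 and 18 lie inside Mirg, and peaks 11 and 19, which were above control in both mutants, lie almost wholly outside it. The RefSeq start falls inside peak 12 instead, which makes peak 12 the start peak and leaves peak 11 before the gene. The direction did not follow place in the gene throughout. Peaks 14, 15 and 16, inside Mirg, were above control in both mutants, and peaks 3, 5, 8, 9 and 21, outside it, were below control in both.

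The mutants stood furthest apart at peak 10 (chr12:109728151-109728900), which overlaps Mir539 just before Mirg. It had -0.45 log2 reads per M in MommeD43-GFP, -1.15 in Smchd1 del/del and -0.47 in the control. MommeD43-GFP was 0.02 above control (SE 0.206), whereas Smchd1 del/del was at -0.68 (SE 0.263), the lowest of the domain in that comparison. MommeD43-GFP minus Smchd1 del/del was 0.69 (SE 0.256). Peak 4 (chr12:109708951-109709400), over Mir379, the first microRNA of the cluster, had 0.68 between the mutants (SE 0.296). At the other extreme, peak 20 (chr12:109752151-109752750), just after Mirg, had -0.91 in MommeD43-GFP, -0.48 in Smchd1 del/del and -1.05 log2 reads per M in the control. Its mutant difference of -0.43 (SE 0.236) was the lowest of the 22.

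The 4 highest peaks after peak 19 included peaks 12 and 18 and a pair in the microRNA cluster before Mirg. Peak 6 (chr12:109711801-109713750), over Mir380, Mir1197, Mir323, Mir758 and Mir329, had 0.66 log2 reads per M in MommeD43-GFP, 0.46 in Smchd1 del/del and 0.57 in the control. Peak 5 (chr12:109709701-109711200), over Mir411, Mir299a and Mir299b, had 0.29 in both mutants and 0.59 in the control, a difference of -0.30 in each (SE 0.15 for MommeD43-GFP and 0.167 for Smchd1 del/del). The other peaks over Mirg were lower by the mean of the 3 log2 values, though not in each genotype. In MommeD43-GFP peak 15 was above peaks 12 and 18, and in Smchd1 del/del peak 16 was. Peak 13, over Mir453, had -0.48 in MommeD43-GFP, -0.97 in Smchd1 del/del and -0.80 in the control. Peak 14, with no hairpin, had -1.08, -1.24 and -1.42 in that order of genotypes. Peak 15, over Mir154 and with a motif match, had 0.26, 0.06 and -0.00, and peak 16, over Mir377, had 0.03, 0.25 and -0.06. Peak 17, over Mir541, had 0.04, 0.06 and 0.29. MommeD43-GFP was thus above control at peaks 13 to 16 and below it at peak 17. Each of these differences was smaller than 2-fold and within 95% counting error.

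The remaining motif matches lay before Mirg. Peak 7, with no hairpin, had -0.93 log2 reads per M in MommeD43-GFP, -0.86 in Smchd1 del/del and -1.04 in the control. Peak 8, over Mir667, had -0.52, -0.38 and -0.31 in that order. The 5 peaks with a motif match had a median difference from control of 0.26 for MommeD43-GFP and 0.18 for Smchd1 del/del, against 0.02 and -0.24 at the 17 peaks without one. Over the whole table, the medians were 0.06 for MommeD43-GFP and 0.05 for Smchd1 del/del at the 50957 peaks with such a match, against -0.02 and -0.07 at the 174812 without one.

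Of the peaks not yet described, those at B830012L14Rik had the mutants apart. Peak 1 had -0.43 log2 reads per M in MommeD43-GFP, -0.94 in Smchd1 del/del and -0.52 in the control, and peak 2 had -0.29, -0.86 and -0.72. MommeD43-GFP minus Smchd1 del/del was 0.52 (SE 0.243) at peak 1 and 0.57 (SE 0.235) at peak 2. Peaks 3, 9, 21 and 22, outside genes and with no hairpin, differed from control by -0.51 to -0.11 in MommeD43-GFP and by -0.41 to 0.06 in Smchd1 del/del.

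The signal was also summed by stretch, in reads per M and kb of peak. Over the first 3 peaks it was 0.987 in MommeD43-GFP, 0.743 in Smchd1 del/del and 0.898 in the control. Of these, peaks 1 and 2 are at B830012L14Rik and peak 3 is outside genes. Over the 7 peaks of the microRNA cluster before Mirg it was 0.92, 0.834 and 0.957. Over the 9 peaks of Mirg it was 1.125, 1.094 and 1.064. Without peak 19, chosen after seeing the data, the other 8 peaks had 0.866, 0.852 and 0.897, so the control was highest instead of lowest. The 3 peaks after Mirg had 1.036, 1.228 and 1.154. Smchd1 del/del was thus lowest in the first pair of stretches and highest in the last. This order of the sums did not hold at each peak. In the last stretch, peak 20 had 1.193 in Smchd1 del/del and 0.802 in the control, and peak 22 had 1.116 and 1.068. At peak 21 the control was higher, with 2.028 against 1.524 in Smchd1 del/del. The sum over Mirg joins peaks with differences in both directions, from -0.55 to 1.03 for MommeD43-GFP and from -0.61 to 1.12 for Smchd1 del/del. Of the reads per M summed over the 22 peaks, the 9 of Mirg held 54.9% in MommeD43-GFP, 56.3% in Smchd1 del/del and 52.9% in the control. Without peak 19 the other 8 peaks held 34.2%, 35.4% and 36.1% of the same total. Peaks 11 and 19 were counted in full, though most of their bases lie outside the gene.

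**Figure D3:**
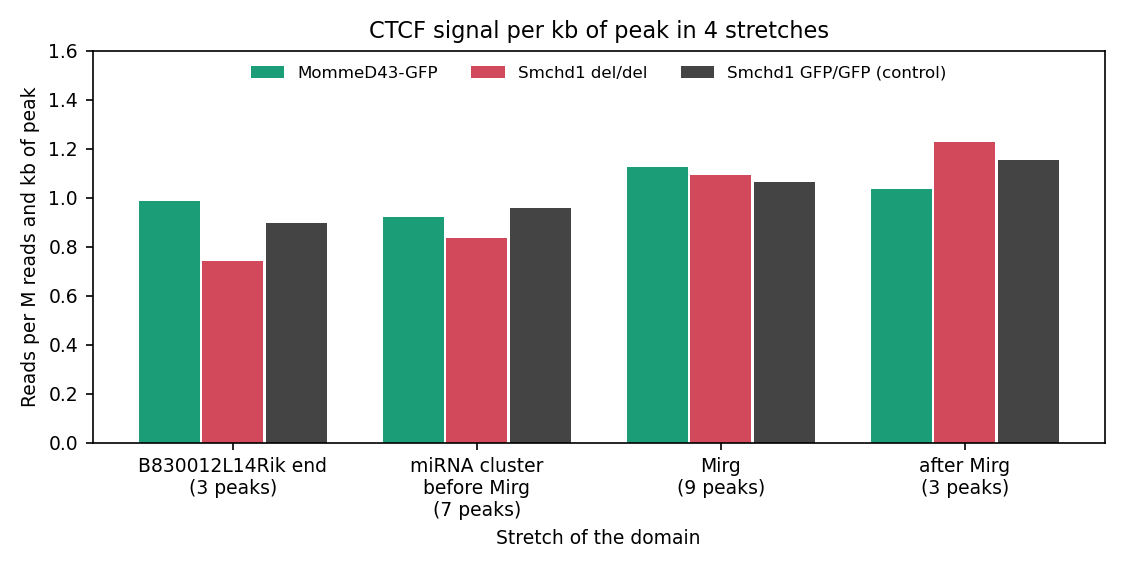
CTCF signal in reads per M and kb of peak, summed over the peaks of 4 stretches in order along the chromosome, for MommeD43-GFP, Smchd1 del/del and the control. Each bar is 1 pooled value with no error. Mirg has 1.125, 1.094 and 1.064 with peak 19 included (0.866, 0.852 and 0.897 without it). Smchd1 del/del is lowest in the stretches before Mirg and highest in the one after it, though not at each peak. The first stretch holds peaks 1 and 2 at B830012L14Rik and peak 3 outside genes.

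Beside the domain, the other imprinted genes of the cluster and neighbouring genes were listed for comparison. The peaks within 10 kb of Begain, Dio3, Dio3os, Wars, Wdr25, Yy1, Slc25a29 and Ppp2r5c numbered 46, and 0 of them were 2-fold different in any of the 3 comparisons. On all of chromosome 12 (10918 peaks), 2.44% were at least 2-fold higher and 1.75% lower in MommeD43-GFP than in control, 3.99% and 2.01% in Smchd1 del/del than in control, and 1.58% and 2.2% between the mutants, so a count of 0 among 46 is near these shares. Their median difference was -0.10 for MommeD43-GFP minus control, against 0.01 over all peaks of the table, and -0.20 for Smchd1 del/del minus control, against -0.04. A peak over Dio3os (chr12:110273551-110276700), the antisense partner of the thyroid hormone inactivating deiodinase gene Dio3, had 1.58 log2 reads per M in MommeD43-GFP, 0.91 in Smchd1 del/del and 1.65 in the control. Its difference from control was -0.08 (SE 0.1) for MommeD43-GFP and -0.74 (SE 0.128) for Smchd1 del/del. As at peak 10, MommeD43-GFP was near control there and Smchd1 del/del below it. This was not particular to the imprinted genes. A peak in the neighbour Wdr25 (chr12:108977251-108978600) had -0.05 (SE 0.145) for MommeD43-GFP and -0.88 (SE 0.193) for Smchd1 del/del. The other peak listed near Dio3os (chr12:110264251-110269500) had -0.29 in both mutants.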

How the data were processed

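CTCF ChIP-seq was run with antibody D31H2 on 8 libraries of 3 genotypes, with 1 input library that was not used here. Per the labels, reads were processed with Trim Galore 0.4.4, cutadapt 2.9, FastQC 0.11.8, Bowtie2 2.3.4.1, SAMtools 1.7 and R 4.2.0. The authors called peaks over each replicate set, with reads extended, and merged overlapping peaks. As deposited, the table gives read numbers per M reads on a log2 scale, with 1 pooled value (the authors' mean) per genotype and peak. The values are not divided by peak length, and whether duplicates were removed is not given in the sources used here. For the study's own window test the methods name scaling factors from trimmed means of M values over large bins, and whether these were applied to the deposited table is not stated.

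Differences were taken between log2 values, and a peak was called at 2-fold (1 on the log2 scale). With pooled values no test was run. The reads behind a value were recovered from the lowest values of each column, which are steps of whole reads with 0 entered as 0.9 (tolerance 0.01). Several forms of this rule were tried on these data and on simulated data before it was kept. The lowest value, taken as 0 reads in every library, was shared by 33 peaks in MommeD43-GFP, 3 in Smchd1 del/del and 5 in the control. In simulated tables of 225769 peaks with 2 or more such peaks, the library size was recovered within 1% in 21 of 21 draws, and without them in 15 of 27, with a shortfall of up to 5.1%. Counting SEs and reads per library rest on this step, while differences and calls do not.

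Named peaks were those at 2-fold, the highest levels, the extremes of each comparison, those at Mirg and those with the motif. The other peaks of the domain fall outside this rule and were described after their values were seen. The domain and the lists were chosen with earlier results of these data known. Python 3.11.15, numpy 2.4.6, pandas 2.3.3 and matplotlib 3.10.9 were used.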

Additional observations from a re-analysis of the deposited data

How the results depend on the processing

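Centring columns on their medians, quantile normalization, centring on level or GC content, other thresholds, a level filter, pseudocounts and flanks of 0 and 50 kb were tried. Peaks at least 2-fold above control in MommeD43-GFP numbered 0 after quantile normalization, after centring on GC content, at 4-fold, with a level filter that left 9 peaks (mean level no lower than the table's median) and with pseudocounts of 0.1 and 1. In Smchd1 del/del they numbered 0 at 4-fold, with the level filter and with both pseudocounts. At 1.5-fold, 2 peaks (10 and 18) were lower in Smchd1 del/del than in control, and 2 (4 and 10) had MommeD43-GFP above Smchd1 del/del. The median for MommeD43-GFP minus control was -0.20 with the level filter, against 0.09. Of 396 recomputed values of single peaks (flanks and the level filter, which leave a single peak's value as it is, not counted), 2 moved by more than counting error, both at peak 11 with a pseudocount of 1 (0.32 for MommeD43-GFP, 0.35 for Smchd1 del/del), and 5 changed sign, none of them called. The cause was not tested. No paired analysis was possible because each genotype has 1 pooled value, and for the same reason no library could be left out. Depth limits the weak peaks most, such as peak 11 with 12.82 reads per library in the control.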
